A study of Homo sapiens with 6 samples.

Results

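The enzymes described here make serine and pass its carbon to folate. They are PHGDH, PSAT1 and PSPH of serine synthesis, SHMT2, MTHFD2, MTHFD1L and ALDH1L2 of the mitochondrial folate pathway, and SHMT1 and MTHFD1 of its cytosolic counterpart. The 9 genes were taken by symbol from a table of 19330 transcripts, 1 per gene symbol, and all 9 were found. The table holds ribosome footprints from K562 cells, a human chronic myelogenous leukemia line. Ribosome profiling (Ribo-Seq) sequences the short pieces of mRNA that ribosomes protect from a nuclease. The count on a coding sequence (CDS) therefore reflects both how much of an mRNA is present and how densely ribosomes occupy it, and these were not separated here.

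All cells carried a lentiviral CRISPR/Cas9 vector, were selected with puromycin for 48 h and were collected 10 days after infection. In the sgN6AMT1 group (3 libraries) the vector targeted N6AMT1, for which the study's methods describe more than a single guide. The N6AMT1 protein methylates the translation release factor eRF1, among other reported substrates. In the sgCtrl group (3 libraries) the labels name guides against the olfactory receptor genes OR11A1 and OR2M49, where the study's methods write OR2M4 and also list a guide against EGFP. Which guide each library carried is not given in the labels. The libraries of a group came from independent transductions per the study's methods, and no cloning of edited cells is described. A smaller change in every cell and a larger one in some of the cells can therefore not be told apart.

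Serine synthesis leaves glycolysis at 3-phosphoglycerate, which PHGDH oxidizes, PSAT1 transaminates and PSPH dephosphorylates to serine. The SHMT enzymes split serine into glycine and a one-carbon unit bound to tetrahydrofolate, and the MTHFD enzymes convert that unit between its oxidation states. In proliferating cells the mitochondrial branch usually runs toward formate, which the cytosol uses to build purines, thymidylate and methionine. Several of these genes are known targets of ATF4, a transcription factor induced by amino acid shortage and by mitochondrial dysfunction.

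As the targeted gene's product acts on the factor that reads stop codons, the stop codons of 4 of the enzymes are shown: the 3 that were lower in sgN6AMT1, and MTHFD2, whose log2 fold change was nearest 0. Each is the 12 bases before the stop, the stop codon in capitals and the 12 bases after it, read 5′ to 3′ on the mRNA's strand from GENCODE release 44 on GRCh38.
MTHFD1L: aaaggcttgttcTAAgtggacaaggct
MTHFD1: tctcatcatgtaTAAattaacataaat
SHMT2: tttgatgagcatTGAaggcacctggga
MTHFD2: gtagccactaatTAActactgtgtctt
These stops lie at chr6:151092554-151092556, chr14:64459933-64459935, chr12:57234359-57234361 and chr2:74214240-74214242, all on the plus strand. The 3 lower enzymes do not share a stop codon: MTHFD1L and MTHFD1 end in TAA and SHMT2 ends in TGA. Over all 9, TAA ended 5 genes, TGA ended 3 and TAG ended ALDH1L2. Among 8596 tested genes with an annotated stop, 29.7% ended in TAA, 49.1% in TGA and 21.2% in TAG, and the median log2 fold changes of these classes were -0.01, 0.01 and 0.03.

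The libraries held 1821356 to 2969736 counts, so 1 footprint was worth 0.345 to 0.543 CPM (counts scaled with edgeR's cpm function to a library size adjusted by trimmed-mean factors). For N6AMT1, 25, 24 and 34 footprints were counted in sgCtrl, against 10, 9 and 8 in sgN6AMT1. Its log2 fold change, sgN6AMT1 over sgCtrl as throughout, was -1.51 with an SE of 0.31 (edgeR, adjusted p = 6.69e-05). All 9 erythroid markers of K562 cells had footprints, with summed levels of 27290 to 28790 CPM in sgCtrl and 27780 to 28730 CPM in sgN6AMT1. Most of that sum is the fetal globins HBG1 and HBG2, and of the 9 markers ALAS2 (log2 fold change 1.68) and HBE1 (0.48) were higher while HBZ (-0.27), TFRC (-0.33), GATA1 (-0.29) and KLF1 (-0.37) were lower. The part of this shift in the results below was not tested. Of 8 markers of other cell types, MS4A1 and CD14 were at 0, and the summed level was 171 to 202 CPM against 186 to 210 CPM, nearly all of it EPCAM. Of 9202 genes tested with edgeR, 26.9% passed an adjusted p of 0.05, 12.9% higher and 13.9% lower in sgN6AMT1.

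All 9 enzymes had enough footprints to be tested. MTHFD1L, MTHFD1 and SHMT2 were lower in sgN6AMT1, at folds of 0.799, 0.864 and 0.898, and none was higher. These 3 are 33.3% of the 9, against 13.9% of all genes tested that were lower and 26.9% that passed in either direction, and with 9 genes the share rests on few calls, of which SHMT2 lies at the threshold. The median log2 fold change of the 9 was -0.10, against 0.01 over all genes tested. The groups did not overlap in CPM for 4 of the 9, the 3 lower enzymes and PHGDH, and for 37.5% of all genes tested. DESeq2, which passed 12.3% of the genes it tested, passed MTHFD1L and MTHFD1 of the 9.

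**Figure D1:**
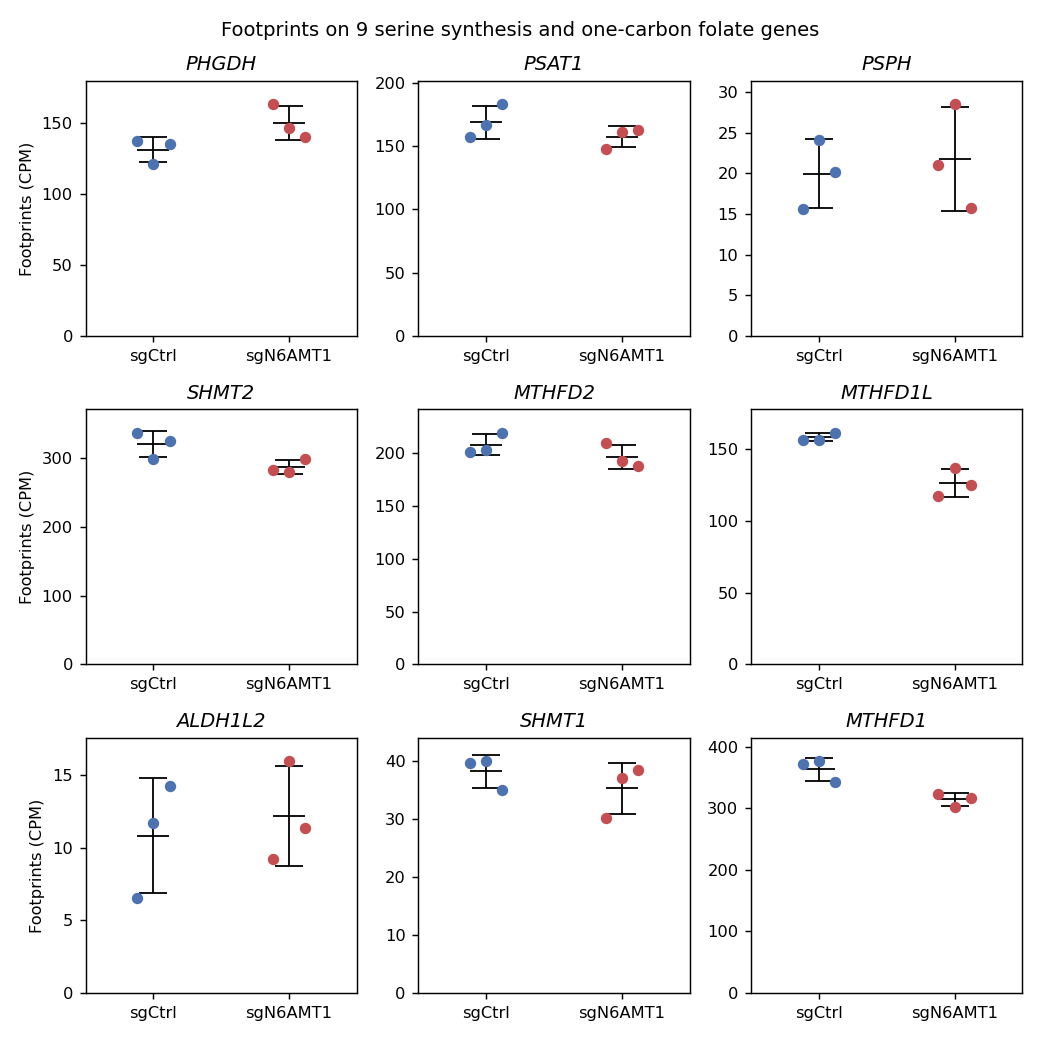
Footprints on each enzyme in CPM (linear axis from 0), with 1 point per library for 3 sgCtrl (blue) and 3 sgN6AMT1 (red) libraries and the mean ± SD in black. The groups are apart for PHGDH, SHMT2, MTHFD1L and MTHFD1, and PSPH and ALDH1L2 vary widely within both groups.

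Set per kilobase of CDS and scaled to each library's total count, the order of the levels was the same in both groups. It ran from SHMT2 (207 ± 12.8 on this scale, SD, n = 3, in sgCtrl) through MTHFD2 (193 ± 8.81), PSAT1 (148 ± 11.1), MTHFD1 (123 ± 6.51), PHGDH (80.3 ± 5.42), MTHFD1L (52.7 ± 0.849), PSPH (28.8 ± 6.14) and SHMT1 (25.7 ± 1.92) to ALDH1L2 (3.82 ± 1.39). The libraries of SHMT2 and MTHFD2 overlapped in both groups, as did those of PSPH and SHMT1, so the order within these pairs is not fixed. MTHFD1L and PSPH overlapped in sgN6AMT1 and not in sgCtrl. In sgCtrl, SHMT2 stood at the 89.7th percentile of the tested genes on this scale, and ALDH1L2 at the 8th.

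PHGDH, the first enzyme of serine synthesis, lies on chromosome 1 (119711934 to 119744212, plus strand, GRCh38, 12 exons). It had 138, 121 and 135 CPM in sgCtrl and 164, 147 and 140 CPM in sgN6AMT1. Every sgN6AMT1 library was above every sgCtrl library, by a margin smaller than the spread within either group. The log2 fold change was 0.21 (SE 0.08, 95% interval 0.04 to 0.37), and the edgeR adjusted p was 0.0502, just above the threshold of 0.05, so PHGDH was not called. It was above 0 in all 15 alternative settings and passed the threshold in 5 of them, among them scaling by total counts (0.26, adjusted p = 0.0107). When smooth trends of each library on CDS length and GC content were removed, it was 0.09 (adjusted p = 0.42). In that setting the median log2 fold change of all genes tested fell as well, from 0.01 to -0.07.

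PSAT1, the second enzyme, lies on chromosome 9 (78297125 to 78330093, plus strand). It had 157, 166 and 183 CPM in sgCtrl and 148, 161 and 163 CPM in sgN6AMT1, and the groups overlapped. Its log2 fold change was -0.10 (95% interval -0.25 to 0.05; edgeR adjusted p = 0.338). It passed only with the CDS length and GC trends removed (-0.19, adjusted p = 0.0246), where the median of all genes tested was -0.07. GENCODE lists 4 pseudogene copies of PSAT1, with which reads may be shared.

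PSPH, which releases serine, lies on the minus strand of chromosome 7 (56011068 to 56051604). It had only 31, 70 and 41 footprints in sgCtrl and 48, 66 and 29 in sgN6AMT1, or 20 ± 4.29 and 21.8 ± 6.42 CPM (SD, n = 3). The interval of its log2 fold change, -0.26 to 0.49 around 0.12 (edgeR adjusted p = 0.702), was wide, and a change in PSPH of the size measured for PHGDH was not detectable at its depth. An unprocessed pseudogene copy, PSPHP1, lies on the same chromosome, so reads may be shared. Summed, the 3 serine synthesis genes had 320 ± 15.7 CPM in sgCtrl and 329 ± 9.34 CPM in sgN6AMT1, and the groups overlapped.

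MTHFD1L, which releases formate from 10-formyltetrahydrofolate in mitochondria, had the largest change of the 9. Its gene lies on chromosome 6 (150865679 to 151101885, plus strand, 28 exons). It had 312, 455 and 328 footprints in sgCtrl, which are 157, 157 and 162 CPM. In sgN6AMT1 it had 268, 317 and 230 footprints, or 118, 137 and 125 CPM. The sgCtrl libraries were tightly grouped, and the highest sgN6AMT1 library was well below them. The log2 fold change was -0.32 (SE 0.08, 95% interval -0.48 to -0.16; edgeR adjusted p = 0.000974), a fold of 0.799. It was lower and past the threshold in all 15 alternative settings, from -0.39 to -0.27. The size of this change ranked at the 68.9th percentile of the absolute log2 fold changes of all genes tested.

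SHMT2, the mitochondrial serine hydroxymethyltransferase, lies on chromosome 12 (57229711 to 57234935, plus strand). It had 338, 300 and 325 CPM in sgCtrl and 284, 280 and 299 CPM in sgN6AMT1. The second sgCtrl and the third sgN6AMT1 library nearly met, with 299.6 and 298.6 CPM. The log2 fold change was -0.16 (SE 0.06, 95% interval -0.28 to -0.03; edgeR adjusted p = 0.0495). This call lies at the threshold and was lost in 10 of 15 alternatives, DESeq2 (adjusted p = 0.168) and limma-voom (adjusted p = 0.0653) among them, with the direction kept in all.

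MTHFD2, the mitochondrial dehydrogenase and cyclohydrolase, lies on chromosome 2 (74198615 to 74217565, plus strand). It had 201, 203 and 219 CPM in sgCtrl and 209, 192 and 187 CPM in sgN6AMT1, and the groups overlapped. Its log2 fold change was -0.08 (95% interval -0.21 to 0.06; edgeR adjusted p = 0.457). Its pseudogene copies number 7, the most of the 9 enzymes. It passed only with the CDS length and GC trends removed (-0.17, adjusted p = 0.0309), where the median of all genes tested was -0.07.

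ALDH1L2, which oxidizes mitochondrial 10-formyltetrahydrofolate to carbon dioxide, lies on the minus strand of chromosome 12 (105019790 to 105084458). It had the fewest footprints, 13, 34 and 29 in sgCtrl and 21, 37 and 21 in sgN6AMT1. The libraries of a group differed more than the groups did, and the interval of the log2 fold change ran from -0.34 to 0.66 around 0.16 (edgeR adjusted p = 0.692). Summed, the 4 mitochondrial folate genes had 702, 671 and 720 CPM in sgCtrl and 619, 625 and 622 CPM in sgN6AMT1, a ratio of the means of 0.892 with no overlap. SHMT2 and MTHFD1L made up most of the drop.

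MTHFD1, the cytosolic enzyme with all 3 folate activities in 1 protein, lies on chromosome 14 (64388031 to 64463457, plus strand). It had the highest CPM of the 9, with 372, 377 and 342 in sgCtrl and 324, 303 and 317 in sgN6AMT1. Every sgN6AMT1 library was below every sgCtrl library. The log2 fold change was -0.21 (SE 0.06, 95% interval -0.33 to -0.09; edgeR adjusted p = 0.00388), a fold of 0.864. It remained past the threshold in 14 of 15 alternatives. Without sgN6AMT1 replicate 2, the lowest library, the log2 fold change was -0.18 and the adjusted p 0.0563.

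SHMT1, the cytosolic serine hydroxymethyltransferase, which like MTHFD1 has 1 listed pseudogene copy, lies on the minus strand of chromosome 17 (18327873 to 18363550). It had 39.7, 40 and 35 CPM in sgCtrl and 30.2, 37.1 and 38.5 CPM in sgN6AMT1, and the groups overlapped. Its log2 fold change of -0.13 had an interval of -0.40 to 0.14 (edgeR adjusted p = 0.535). The 2 cytosolic genes summed to 402 ± 21.5 CPM in sgCtrl and 350 ± 8.61 CPM in sgN6AMT1 (SD, n = 3), without overlap, and MTHFD1 held 90.5% of these footprints in sgCtrl. Over all 9 enzymes the sums were 1424, 1399 and 1436 CPM against 1306, 1302 and 1296 CPM, a ratio of 0.917. As shares of all counts without scaling factors, they were 0.139% and 0.132%, also without overlap, with a ratio of 0.951.

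**Figure D2:**
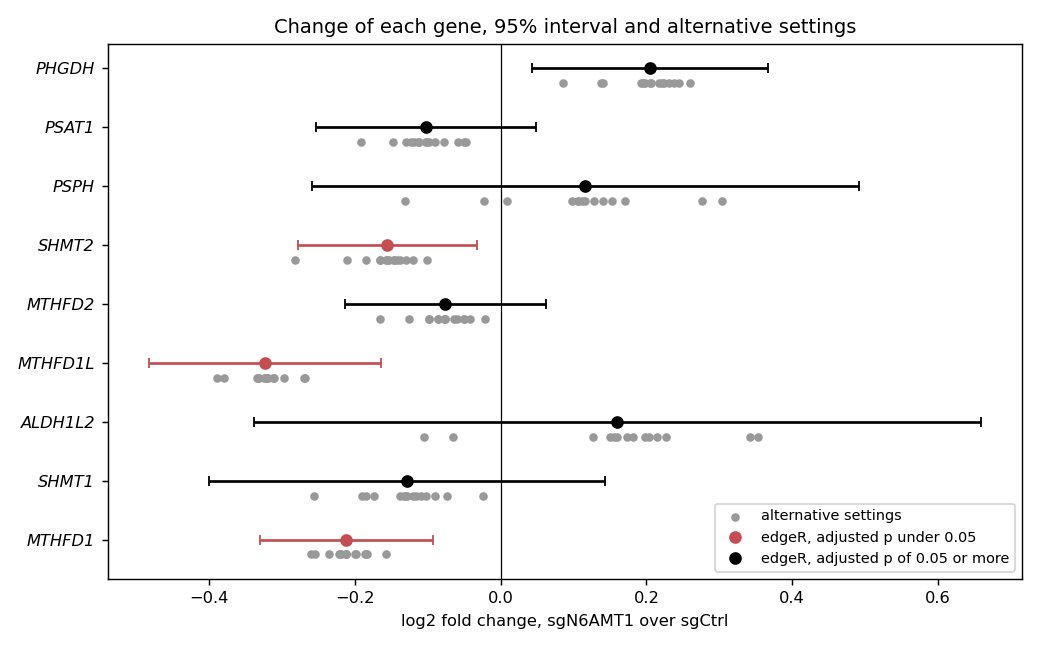
Log2 fold change of each enzyme, sgN6AMT1 over sgCtrl, with its 95% interval from edgeR (red where the adjusted p is under 0.05) and, in grey, the value in each alternative setting. All grey points of MTHFD1L lie between -0.39 and -0.27, and those of PSPH and ALDH1L2 lie on both sides of 0.

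**Figure D3:**
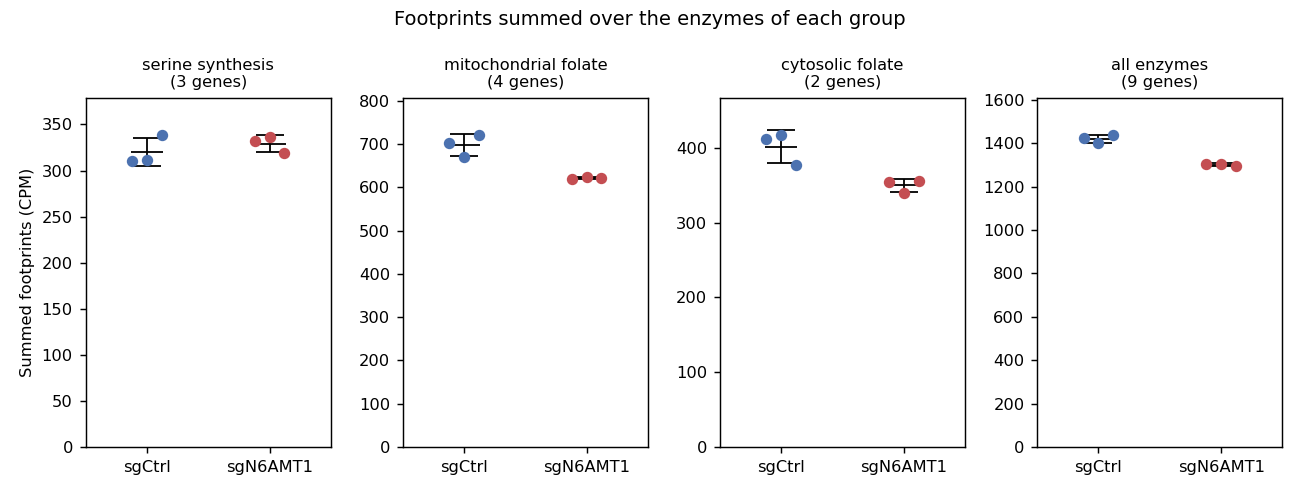
Footprints summed over the enzymes of each group in CPM (linear axes from 0), with 1 point per library and the mean ± SD. The sgN6AMT1 libraries lie below the sgCtrl libraries for the mitochondrial, cytosolic and full sums, and overlap them for serine synthesis.

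Ratios of enzymes within a library do not depend on how libraries are scaled, and 5 were compared with 2-sided exact permutation tests, for which 0.1 is the smallest p at 3 libraries against 3. SHMT2 over SHMT1, the mitochondrial over the cytosolic isozyme, was 8.43 ± 0.904 in sgCtrl and 8.22 ± 1.01 in sgN6AMT1 (SD, n = 3; exact p = 1). MTHFD1L over MTHFD1 was 0.437 ± 0.0311 and 0.403 ± 0.0455 (exact p = 0.4). MTHFD2 over MTHFD1 was 0.573 ± 0.0581 and 0.624 ± 0.029 (exact p = 0.3). In all 3 of these ratios the libraries of the groups overlapped.

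PSAT1 over PHGDH was 1.14, 1.37 and 1.35 in sgCtrl and 0.904, 1.1 and 1.16 in sgN6AMT1. This was the largest difference of the 5 (-0.29 on the log2 scale; exact p = 0.2), and the groups overlapped through the first sgCtrl library. PSPH over PHGDH differed by -0.09 (exact p = 0.7). After adjustment over the 5 ratios, p lay between 0.667 and 1. Since 3 libraries against 3 cannot reach 0.05, these tests could pass no ratio, and the values and their spread are the result.

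Promoter windows from RefSeq on GRCh38.p14, 250 bases before to 50 after a start, were present for PHGDH, PSAT1, MTHFD2, MTHFD1L, MTHFD1 and SHMT1. They were searched on both strands for TGATGNAA, the composite element bound by ATF4 with a C/EBP partner, and for the E-box CACGTG. The matches are shown, since they fall in 2 of the 3 lower enzymes, in capitals with 10 bases on each side.
MTHFD1L, ATF4 element: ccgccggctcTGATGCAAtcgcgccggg
MTHFD1L, E-box: cgcccggctcCACGTGcgcagccggc
MTHFD1, E-box: agtccctaagCACGTGggttgggttg
They lie at chr6:150866347-150866374, chr6:150866322-150866347 and chr14:64388328-64388353, on the plus strand. No window of the other 4 enzymes searched held either motif as spelled, and SHMT2, PSPH and ALDH1L2 were not searched. Of all 35116 windows, 3.62% held TGATGNAA and 7.26% held CACGTG. These shares are per window, a gene can have more than 1, and no share per gene was computed. MTHFD1L has 4 windows, of which 3 overlap and hold the same matches. In these 3 the ATF4 element begins at -129, -90 and 24 bases from the start, and the E-box of MTHFD1 begins at -15. The windows belong to other annotated starts than the counted transcripts. Those of MTHFD1L and MTHFD1 start at 150865679 and 64388031, and the first windows with matches begin at 150866083 and 64388103. On ATF4 itself, 44, 85 and 51 footprints were found in sgCtrl, against 89, 91 and 61 in sgN6AMT1. Its level was higher in every sgN6AMT1 library once scaled (log2 fold change 0.53 ± 0.15, SE; adjusted p = 0.00414 by edgeR). ATF3, another stress factor, was higher (1.08, adjusted p = 0.00224), as was EIF2AK1, a kinase of the initiation factor eIF2 (0.45, adjusted p = 4.65e-05), and ATF5 was lower (-1.35, adjusted p = 0.000288). DESeq2 did not pass ATF4 (adjusted p = 0.0967) or ATF3 (adjusted p = 0.0699). Of 7 tested genes in this list of stress regulators, edgeR called 3 higher and 1 lower, against 12.9% and 13.9% of all genes tested. DDIT3 of the same list had too few footprints to be tested, with 5, 11 and 7 in sgCtrl and 3, 2 and 2 in sgN6AMT1.

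The genes around the 9 enzymes were read from lists of the same pathways, 84 genes of which 65 were tested. Of these, 5 were higher and 25 lower in sgN6AMT1, or 7.69% higher and 38.5% lower, against 12.9% and 13.9% of all genes tested, which the counts in each list below are also to be read against. The median log2 fold change was -0.15. These lists were chosen with results known, so the gap is a description. Most of the lower genes were in 3 lists, purine synthesis, the methionine cycle with transsulfuration, and the synthesis of other nonessential amino acids. N6AMT1 lies on chromosome 21, whose 86 tested genes had a median log2 fold change of -0.26, with 37 (43%) lower and 2 higher. SLC19A1, CBS and GART of these lists lie there too. None of the 9 enzymes does. Without these 3 genes, an exclusion chosen after the data were seen, 5 were higher and 22 lower of 62.

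In purine synthesis, which takes 2 formyl groups from folate, 7 of 12 tested genes were lower and 0 higher, with a median of -0.25. GART, which adds the first formyl group, had 906, 922 and 889 CPM in sgCtrl and 650, 663 and 619 CPM in sgN6AMT1. Its groups were far apart (-0.49, SE 0.05, edgeR adjusted p = 3.72e-14). GART lies on chromosome 21, where 43% of tested genes were lower, and the part of this in its change was not tested. ATIC, which adds the second formyl group, was also lower (-0.37, adjusted p = 5.26e-07), as was PRPS2, which makes the phosphoribosyl donor (-0.76, adjusted p = 1.26e-08). The related PRPS1 was 0.12 (adjusted p = 0.382).

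In the methionine cycle and transsulfuration, where the methyl carbon of folate is used and homocysteine meets serine, 5 of 9 tested genes were lower and 0 higher, with a median of -0.36, and DESeq2 called 3 lower. AHCY, which hydrolyses S-adenosylhomocysteine, had a log2 fold change of -0.44 (adjusted p = 5.7e-09). CBS, which joins serine and homocysteine, was at -0.59 (adjusted p = 6.99e-07), and MAT2A, which makes S-adenosylmethionine, at -0.38 (adjusted p = 1.7e-06). CBS has a near-identical annotated copy, so its counts are uncertain. MTAP, which lies in a region that K562 cells are known to lack, was at 0 in all libraries.

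Of the synthesis genes of other nonessential amino acids, 7 of 11 tested were lower and 0 higher, with a median of -0.31. OAT was at -0.44 (adjusted p = 8.16e-10), GLUL, the glutamine synthetase, at -0.32 (adjusted p = 8.09e-08), and ASNS, the asparagine synthetase, at -0.30 (adjusted p = 7.99e-06). ASNS is an ATF4 target like the serine synthesis genes, and had 454, 453 and 460 CPM in sgCtrl and 377, 374 and 354 CPM in sgN6AMT1. With scaling by total counts, 1 gene of this list and 1 of the methionine cycle became higher, and 0 of purine synthesis. The medians of the 3 lists stayed below 0 in all 16 alternatives.

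The remaining lists were mixed. Of the other folate genes, 10 of 13 tested did not pass. SLC19A1, the reduced folate carrier, was lower (-0.50, adjusted p = 5.3e-05), and GGH, which trims stored folate polyglutamates, was higher (0.39, adjusted p = 0.000111). TYMS, the thymidylate synthase, was called lower (-0.15, adjusted p = 0.0374) although its libraries overlapped between the groups, and passed in 6 of 15 alternatives. The enzymes that take the carbon directly from a folate, chosen as a group after their values were seen, were GART, ATIC, TYMS, MTR (-0.36, adjusted p = 0.00581) and MTFMT (0.22, adjusted p = 0.529), 4 of them lower. MTR lost its call in 3 of 15 alternatives (DESeq2, without sgCtrl replicate 2 and without sgN6AMT1 replicate 1), and with DESeq2 only GART and ATIC of the 5 passed.

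Of the glycine cleavage and use genes, GCSH (-0.52, adjusted p = 0.000294) and DLD, which other dehydrogenase complexes share (-0.23, adjusted p = 0.000714), were lower among 5 tested. GLDC and AMT, the other subunits of the glycine cleavage system, were at 0 in all libraries. Of 8 serine and glycine transporters, SLC1A5 (0.29, adjusted p = 3.64e-06) and SLC1A4 (0.37, adjusted p = 0.0106), carriers of small neutral amino acids, were higher, and SLC38A2 (-0.19, adjusted p = 0.00984) was lower. SLC1A4 lost its call in 3 and SLC38A2 in 4 of 15 alternatives, DESeq2 among them for both. SFXN1, the mitochondrial serine carrier, was -0.17 (adjusted p = 0.107). In the list for glycolysis around the branch, GAPDH, which has many pseudogene copies, was lower (-0.68, adjusted p = 1.92e-26). PGK1 (0.14, adjusted p = 0.0234) and ENO1 (0.11, adjusted p = 0.0294) were higher, in 11 and 9 of 15 alternatives. With the CDS length and GC trends removed, ENO1 was at -0.02 and the median of all genes tested at -0.07.

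**Figure D4:**
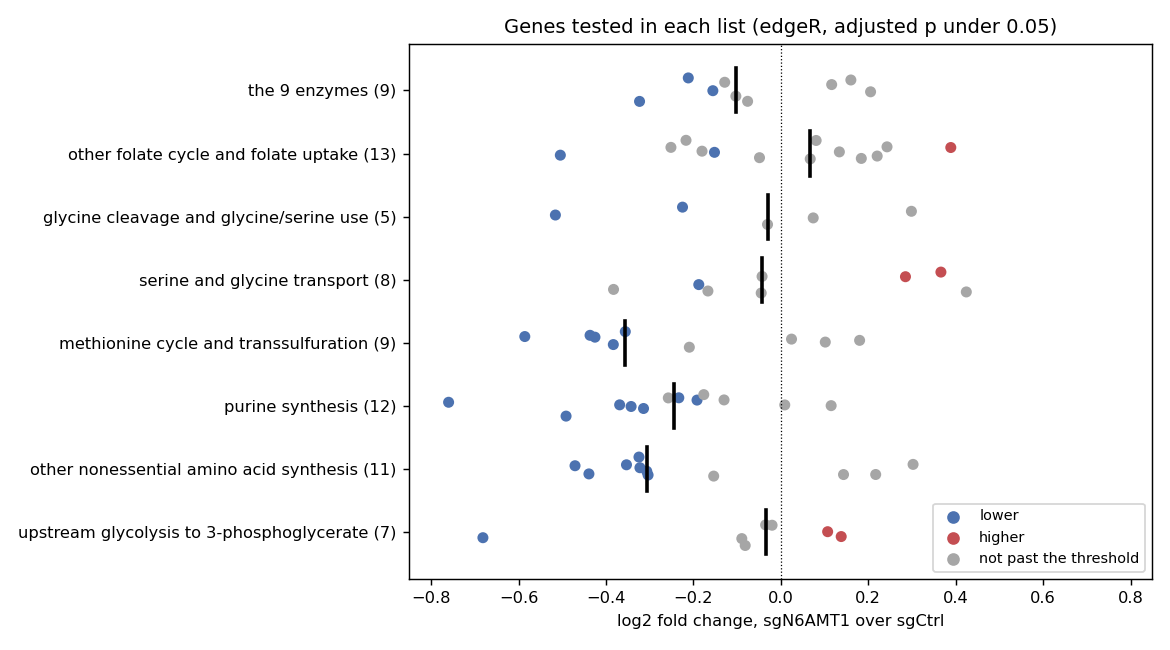
Log2 fold change of every tested gene of the 9 enzymes and of 7 neighbouring lists (1 point per gene, number tested in brackets, vertical position within a row arbitrary), with the list's median as a black bar. Blue points are lower and red points higher in sgN6AMT1 with an adjusted p under 0.05, and the medians of the methionine, purine and nonessential amino acid lists lie at -0.36, -0.25 and -0.31.

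The genes whose log2 CPM followed the most abundant enzyme of each group most closely over the 6 libraries were ACTN1, YIF1B and CDC40 for PSAT1 (Pearson r from 0.966 to 0.981, Spearman rho from 0.714 to 0.829), SP1, POFUT1 and ARFGAP2 for SHMT2 (r from 0.986 to 0.99, rho from 0.943 to 1), and MT-CO2, TOP2A and ACACA for MTHFD1 (r from 0.992 to 0.993, rho from 0.943 to 1). They were the nearest of 3655 genes with at least 50 CPM. Of these, 19 had an r above 0.9 with PSAT1, 109 with SHMT2 and 249 with MTHFD1. The libraries share their group and their depth, so a high r over 6 libraries describes them only.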

How the data were processed

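K562 ribosome footprints of 3 sgCtrl and 3 sgN6AMT1 libraries were analysed from 1 deposited table of raw counts per transcript. The authors trimmed adapters with cutadapt, mapped reads to GRCh38 with HISAT2, dropped those on rRNA and tRNA, mapped the rest to canonical transcripts with Bowtie2 and summed P-sites predicted by riboWaltz over each CDS. They also counted overlaps with gene annotation for DESeq2, and which of these counts were deposited is not stated. The lysis buffer held cycloheximide, and PCR copies could not be removed by molecular identifiers, which the sources do not mention. Reads shared with near-identical copies may be placed on either gene.

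Counts were tested with edgeR 4.0.16 (R 4.3.3): filterByExpr at its minimum of 10 counts (9202 of 19330 genes kept), TMM factors, the robust quasi-likelihood F test, 2-sided, with Benjamini-Hochberg adjustment over all genes tested and a threshold of 0.05. Levels in CPM were computed with the cpm function on the library sizes after TMM. The 1821356 to 2969736 counts per library limit what can be detected. No libraries of a group agreed within sampling noise (chi-square per degree of freedom 1.25 to 1.68). Standard errors were derived from the F statistic. Alternatives were DESeq2 1.42.0, limma-voom (limma 3.58.1), RLE and upper-quartile factors, total counts, no filter, a mean of at least 50 counts, the replicate number as a block, removal of loess trends (span 0.5) on CDS length and GC content, and each library left out. The loess trends were fitted to CPM without TMM factors, and the TMM factors were then applied as well. Ratios had 0.5 added to each count. The procedures were checked on simulated data. Transcripts were matched without version to GENCODE release 44 (17687, 91.5%, among them all 9 enzymes).

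Named were the 9 enzymes, N6AMT1, ATF4, and up to 3 genes with the smallest p per list among those past the threshold, with the 3 genes of at least 50 CPM nearest in pattern to the most abundant enzyme of each group. Other names were added after values were seen. The enzymes and lists were chosen with earlier results of these data known. RNA sequencing was not used here. Stop codon sequences are shown for 4 of the 9 enzymes, and the others are not reported here.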

Additional observations from a re-analysis of the deposited data

How the results depend on the processing

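Over 15 alternatives, 1 to 5 of the 9 enzymes passed the threshold, against 3: 5 when trends on CDS length and GC content were removed, and between 1 and 4 when a library was left out (1 without sgN6AMT1 replicate 2). All genes past the threshold numbered 1324 with DESeq2 against 2473. The share of lower calls was 51.8%, 69.3% with the trends removed and 38.5% with total counts. The median log2 fold change of all genes tested was 0.00633, -0.0714 and 0.0609 in the same order. Other pathway genes past the threshold numbered 23 to 37. SHMT2 missed the threshold with DESeq2 (-0.166), limma-voom (-0.153), upper-quartile factors (-0.143), total counts (-0.101) and a mean of 50 counts (-0.13), and PHGDH passed with upper-quartile factors (0.217), total counts (0.26) and a mean of 50 counts (0.231). When a library was left out, PHGDH ranged from 0.137 to 0.245, PSPH from -0.131 to 0.304, SHMT2 from -0.211 to -0.121, ALDH1L2 from -0.105 to 0.353, SHMT1 from -0.191 to -0.0244 (without sgN6AMT1 replicate 1) and MTHFD1 from -0.255 to -0.184. PSPH and ALDH1L2 fell below 0 without sgCtrl replicate 1 (-0.0228 and -0.0652) and without sgN6AMT1 replicate 2. In the same way the log2 difference of SHMT2 over SHMT1 ranged from -0.137 to 0.0334 and that of PSPH over PHGDH from -0.315 to 0.114. That of MTHFD1L over MTHFD1 ranged from -0.206 (without sgN6AMT1 replicate 2) to -0.047 (without sgN6AMT1 replicate 1), that of MTHFD2 over MTHFD1 from 0.0837 to 0.209 (without sgCtrl replicate 3) and that of PSAT1 over PHGDH from -0.377 to -0.185 (without sgN6AMT1 replicate 1). With the trends removed, PSAT1 (-0.192) and MTHFD2 (-0.166) passed, in a setting where the median of all genes tested was also lower. That setting applies TMM factors on top of trends fitted without them, so a shift common to most genes can be removed again by the factors. The part of the trends and of the factors in these calls was not tested. Over all genes tested, the deviations of same-numbered libraries from their group means had correlations of -0.0591, 0.0215 and 0.0158. Those of the other pairs ran from -0.0783 to 0.0611. Many genes had few counts, whose sampling noise can hide a shared deviation, so a pairing by number is not excluded. With the replicate block, SHMT2 (-0.157, adjusted p = 0.0743) missed the threshold, 2 enzymes and 2390 genes passed, and no other enzyme's call changed.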
